A study of Mus musculus with 27 samples.

Results

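The 39 Hox genes of the mouse were followed through the ileum, cecum and colon of male C57BL/6 mice on feed with arsenic or on control feed. They were chosen by name, as every gene whose symbol was Hoxa, Hoxb, Hoxc or Hoxd followed by a number, without antisense or other transcripts of the clusters, and made up 39 of the 52550 genes in the table. The HoxA cluster on chromosome 6 gave 11 members, the HoxB cluster on chromosome 11 gave 10, and the HoxC cluster on chromosome 15 and the HoxD cluster on chromosome 2 gave 9 each. Poly-A RNA of each tissue was sequenced, and the deposited values were raw counts of reads per gene in 27 libraries. Mice were 6 weeks old at the start, were acclimatized for 7 days and were then fed for 60 days, with 10 mice per diet. Arsenic feed was standard feed with 30 µg of total arsenic per g, of which 72.7% was given as sodium arsenite, 19.0% as sodium dimethylarsinic acid (DMA), 7.3% as sodium arsenate and 1.0% as sodium monomethylarsonic acid (MMA), and control feed was standard feed. There were 5 arsenic and 4 control libraries of the ileum, 5 arsenic and 4 control libraries of the cecum, and 4 arsenic and 5 control libraries of the colon. The labels number libraries 11 to 15 on arsenic feed and 1 to 5 on control feed, and they do not say whether each library was made from a single mouse, so the p-values measure the spread between libraries.

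Hox genes encode homeodomain transcription factors that tell cells where they are along the body axis from head to tail. They sit in clusters, and within a cluster the order of the genes on the chromosome matches the order of their domains along the axis, so that low numbered paralog groups are used far forward and group 13 is used at the tail end; a paralog group is the set of genes with the same number in different clusters. The gut keeps such a positional pattern in its mesenchyme and partly in its epithelium into adult life, and Hoxa13 and Hoxd13 are needed in the mouse embryo to form the hindgut and the anal region. Groups 9 to 13 are called posterior here and groups 1 to 8 anterior.

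Promoter sequences are shown for 4 members that the results turn on: Hoxa13 and Hoxd13, the group 13 genes of the colon, Hoxa9, which separated the cecum and colon from the ileum, and Hoxc4, of the cluster whose trunk genes were higher in the ileum than in the other regions. Each is the 250 bases before the RefSeq start of the gene on GRCm38.p6, read 5′ to 3′ on the strand of the gene, with every CG dinucleotide in capitals. They lie at chr6:52260881-52261130 on the minus strand for Hoxa13, at chr2:74667975-74668224 on the plus strand for Hoxd13, at chr6:52227371-52227620 on the minus strand for Hoxa9 and at chr15:103034145-103034394 on the plus strand for Hoxc4.
Hoxa13: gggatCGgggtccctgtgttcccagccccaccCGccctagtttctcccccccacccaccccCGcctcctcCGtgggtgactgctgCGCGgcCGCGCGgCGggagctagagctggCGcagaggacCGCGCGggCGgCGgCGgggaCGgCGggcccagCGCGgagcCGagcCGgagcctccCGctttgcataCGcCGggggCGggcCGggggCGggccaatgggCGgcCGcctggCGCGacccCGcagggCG
Hoxd13: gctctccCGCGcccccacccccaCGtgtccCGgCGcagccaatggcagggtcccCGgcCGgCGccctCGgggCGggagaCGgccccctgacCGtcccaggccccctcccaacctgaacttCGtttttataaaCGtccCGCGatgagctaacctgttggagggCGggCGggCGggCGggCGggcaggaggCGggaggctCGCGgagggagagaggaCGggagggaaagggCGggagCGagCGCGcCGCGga
Hoxa9: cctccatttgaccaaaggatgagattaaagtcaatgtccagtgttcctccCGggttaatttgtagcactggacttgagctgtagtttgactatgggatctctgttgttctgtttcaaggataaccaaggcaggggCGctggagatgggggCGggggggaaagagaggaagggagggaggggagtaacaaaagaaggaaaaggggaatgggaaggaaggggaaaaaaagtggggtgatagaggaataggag
Hoxc4: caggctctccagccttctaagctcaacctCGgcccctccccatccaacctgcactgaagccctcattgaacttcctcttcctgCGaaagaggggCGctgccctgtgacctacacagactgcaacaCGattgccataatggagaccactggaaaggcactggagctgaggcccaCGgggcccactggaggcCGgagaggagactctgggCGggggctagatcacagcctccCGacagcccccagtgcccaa
The window held 35 CG dinucleotides for Hoxa13 and 31 for Hoxd13, against 3 for Hoxa9 and 8 for Hoxc4. Among 24 windows of the 22 members that the RefSeq table holds, the count ran from 2 to 35 with a median of 12.5, where the median of all 32851 windows in the table was 6. GC content had a median of 58.6% in the members' windows and 52.4% in all windows. TTTATG, searched on both strands as a short form of the site that Cdx proteins can bind, was found in 5 of the 24 windows, those of Hoxa7, Hoxb8, Hoxd3, Hoxd4 and 1 of the 2 of Hoxd11, which is 20.8% against 10.8% of all windows. TATAAA, the core of the TATA box, was found on either strand in 4 windows, those of Hoxb8, Hoxd4, Hoxd13 and 1 of the 2 of Hoxa10, which is 16.7% against 12.4% of all windows. These matches describe the letters in the windows and are not measured binding sites.

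The libraries held 15717600 to 18208518 counts. Levels are given in CPM, the counts of a gene set to a common library size, after scaling by the trimmed mean of M values (TMM) over all 27 libraries. The region markers went with the labels: summed levels of 7 ileum genes ran from 8074 to 20487 CPM in the ileum, from 1288 to 2128 CPM in the cecum and from 220.3 to 1019 CPM in the colon, while 7 large intestine genes summed to 471.6 to 735.2 CPM, 28968 to 41816 CPM and 7399 to 14446 CPM in the same order, with Prdx6b at 0 counts throughout. 3 libraries stood apart. The library labelled colon control 1 held 160.7 CPM of Slc26a3, a chloride exchanger of the colon surface, against 775.9 to 2505 CPM in the other colon libraries, and held 0 counts of Hoxb13. The libraries labelled ileum arsenic 14 and 15 held 6.13 and 1.33 CPM of Fabp6, which carries bile acids in cells of the distal ileum, against 218.4 to 4268 CPM in the other ileum libraries. Calls that change without these libraries are given beside the gene or with the cell markers of the colon. In bulk tissue, fewer cells of a type and less RNA per cell cannot be told apart.

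The gut regions differed in how much Hox RNA they held and in which genes made it up. Summed over the 39 members, the ileum held 83.5 ± 21.7 CPM on arsenic feed and 95.7 ± 11.9 CPM on control feed (mean ± SD, n = 5 and 4), the cecum 390 ± 59.6 and 500.1 ± 40.6 CPM (n = 5 and 4), and the colon 446.6 ± 36.7 and 457.2 ± 68.2 CPM (n = 4 and 5). HoxC genes took 35.8 ± 5.59% of these counts in arsenic ileum and 44.6 ± 2.48% in control ileum, but 1.45 ± 0.25% and 1.35 ± 0.15% in the cecum and 0.793 ± 0.777% and 0.626 ± 0.381% in the colon on arsenic and control feed. Posterior genes took 6.02 ± 6.23% in arsenic ileum and 2.74 ± 1.53% in control ileum, 41.7 ± 5.75% in arsenic cecum and 45.7 ± 1.22% in control cecum, and 64.3 ± 11.5% in arsenic colon and 63 ± 20.6% in control colon. Of the 16 posterior members, over 3 counts were found for 4 in the ileum, for 11 in the cecum and for 14 in the colon, on either feed. A total of 28 members reached a group mean of 1 CPM somewhere, and 11 did not.

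**Figure D1:**
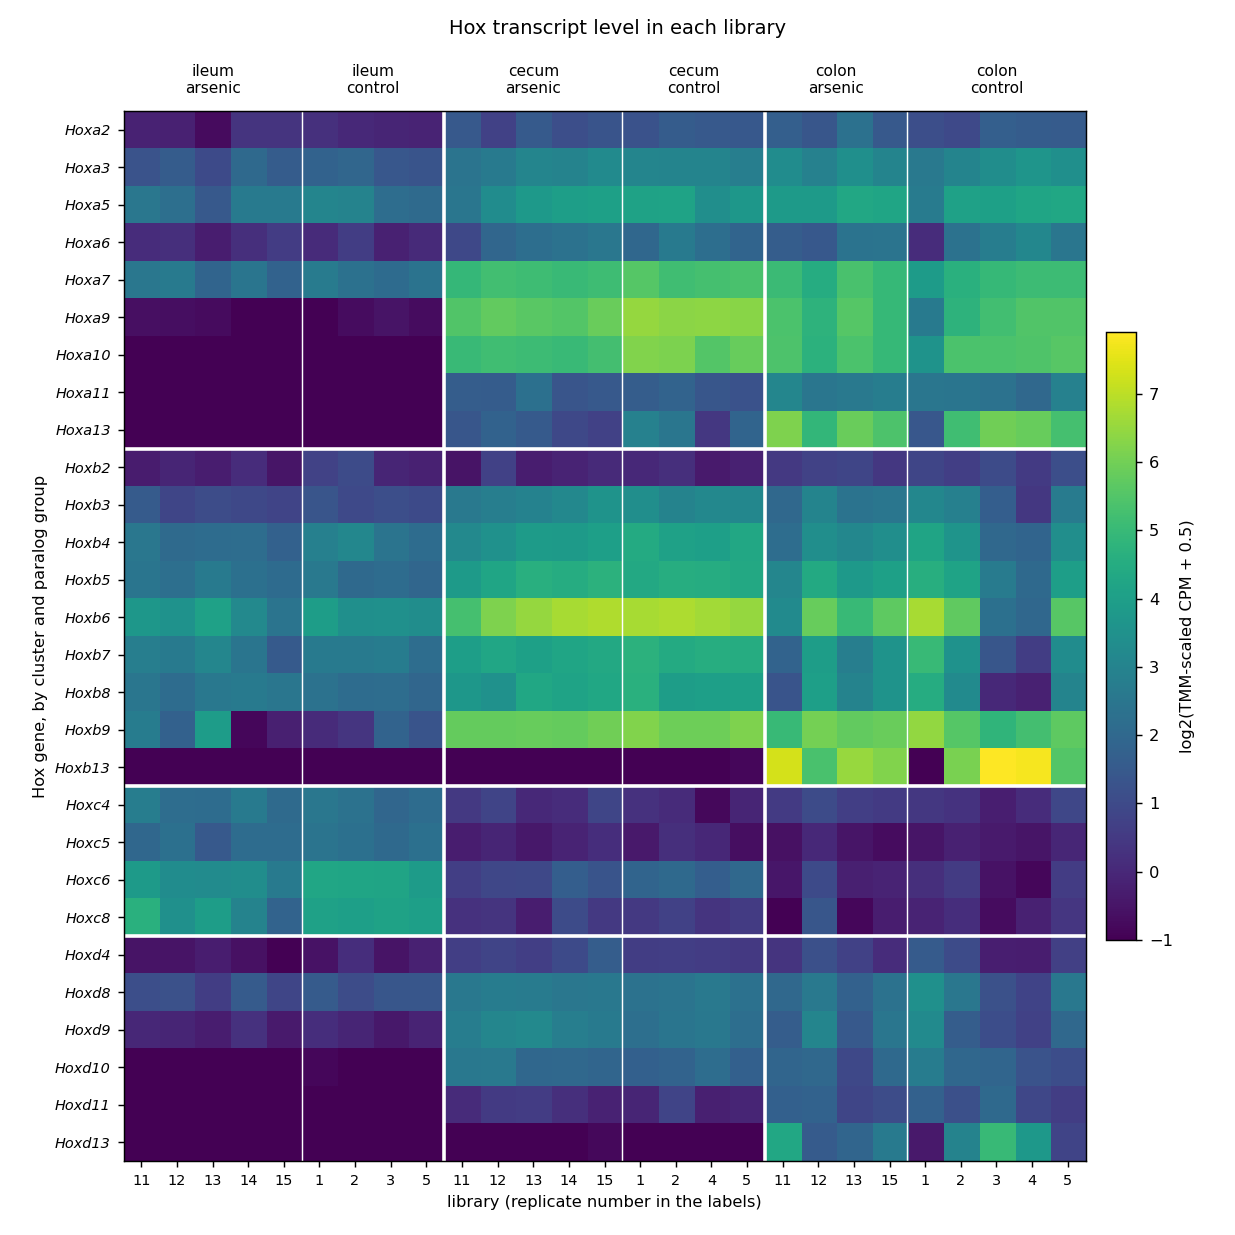
Level of the 28 Hox genes with a group mean of at least 1 CPM (rows, by cluster and paralog group) in the 27 libraries (columns, by region, with arsenic left of control), as log2 of TMM-scaled CPM plus 0.5. The posterior rows of HoxA and HoxD and that of Hoxb13 are dark in the ileum, HoxC is brightest in the ileum, and Hoxb13 and Hoxd13 are bright only among colon libraries.

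The steps between regions were tested with edgeR's quasi-likelihood F-test over all genes that passed its filter on low counts, once on each feed, and a gene was called where its p, adjusted by Benjamini and Hochberg's method, was under 0.05. Of 31 members that passed the filter, the cecum over ileum comparison called 22 higher and 4 lower on arsenic feed, 83.9% of them, where 52.2% of all 17022 genes were called (25% higher and 27.1% lower). On control feed it called 20 members higher and 5 lower, 80.6%, where 54.9% of all 16882 genes were called (28.4% higher and 26.5% lower). Colon over ileum gave 23 higher and 4 lower on arsenic feed, 87.1% against 59.1% of all genes (32.8% higher and 26.3% lower), and 20 higher and 5 lower on control feed, 80.6% against 52.2% (27.7% higher and 24.5% lower). Colon over cecum gave 6 higher and 2 lower on arsenic feed, 25.8% against 38.6% of all genes (22.5% higher and 16.2% lower), and 6 higher and 5 lower on control feed, 35.5% against 47.2% (21.9% higher and 25.3% lower). The median log2 fold change of the members tested was 1.98 and 2.09 for cecum over ileum on arsenic and control feed, where the median of all genes was -0.06 and -0.03. It was 1.92 and 1.78 for colon over ileum, where all genes had 0.07 and 0.02, and -0.32 and -0.25 for colon over cecum, where all genes had 0.02 and -0.05. A member that passed the filter only through the region where it is high had to differ, so these shares describe the members that passed and not all 39. The feeds share no libraries, and for cecum over ileum 23 members had the same call on both, 88.5% of those called on arsenic feed and 92% of those called on control feed. For colon over ileum it was 24 members, 88.9% and 96%, and for colon over cecum 7 members, 87.5% and 63.6%, and no member had opposite calls. Fold changes with SE and p are given for the 12 called members of smallest p in each of these comparisons, and the other called members are named as called.

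HoxC genes of the trunk groups were highest in the ileum. Hoxc6, a trunk gene used in the thoracic region of the embryo, held 13.9, 9.67, 9.23, 9.78 and 5.81 CPM in arsenic ileum and 18.8, 18.1, 17.9 and 14.2 CPM in control ileum. In the cecum Hoxc6 held 1.09, 1.38, 1.39, 2.67 and 1.98 CPM on arsenic feed and 3.14, 3.67, 2.68 and 3.49 CPM on control feed. In the colon Hoxc6 held 0.222, 1.51, 0.364 and 0.433 CPM on arsenic feed and 0.635, 0.949, 0.17, 0.054 and 0.996 CPM on control feed. Every ileum library was above every cecum and colon library. The log2 fold change of Hoxc6 for colon over ileum was -3.84 ± 0.45 on arsenic feed (edgeR adjusted p = 5.52e-06) and -4.92 ± 0.4 on control feed (edgeR adjusted p = 3.23e-07). In the cecum it was lower than in the ileum on both feeds, with a change of -2.41 ± 0.37 on control feed (edgeR adjusted p = 8.81e-05), and for colon over cecum the change was -1.32 ± 0.46 on arsenic feed (edgeR adjusted p = 0.0344) and -2.51 ± 0.42 on control feed (edgeR adjusted p = 0.000291). The colon over cecum call on arsenic feed was lost without cecum arsenic 14 or colon arsenic 11, 13 or 15 (adjusted p from 0.0873 to 0.0987).

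Hoxc8, the other trunk gene of the cluster with a high level, held 24.8, 10.5, 14.9, 7.41 and 3.08 CPM in arsenic ileum and 16.5, 15.8, 17.1 and 15.7 CPM in control ileum. In the cecum it held 0.702, 0.755, 0.316, 1.54 and 0.888 CPM in arsenic libraries and 0.896, 1.16, 0.775 and 0.951 CPM in control libraries, and in the colon 0, 2.13, 0.052 and 0.325 CPM and 0.423, 0.614, 0.113, 0.378 and 0.839 CPM. Ileum arsenic 15 had the lowest ileum value and still lay above every cecum and colon library, and the control ileum libraries varied by 4.18% (SD as a share of the mean) where the arsenic ones varied by 68.4%. Colon over ileum, the log2 fold change of Hoxc8 was -5.07 ± 0.29 on control feed (edgeR adjusted p = 5.78e-09), and cecum over ileum it was -4.1 ± 0.29 on control feed (edgeR adjusted p = 5.12e-08). For colon over cecum it was -0.98 ± 0.33 on control feed (edgeR adjusted p = 0.0271), a call made on that feed alone and lost without colon control 4 (adjusted p = 0.0589), cecum control 2 (0.076) or cecum control 5 (0.054).

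Hoxc4 held 6.35, 4.09, 3.9, 5.75 and 3.71 CPM in arsenic ileum and 5.31, 4.65, 3.31 and 3.97 CPM in control ileum, and Hoxc5 3.45, 4.42, 2.27, 3.92 and 3.92 CPM in arsenic ileum and 4.91, 4.36, 3.62 and 4.34 CPM in control ileum. In the cecum Hoxc4 ran from 0.506 to 1.3 CPM in arsenic libraries and from 0.0705 to 0.704 CPM in control libraries, and in the colon from 0.92 to 1.56 CPM and from 0.34 to 1.36 CPM. Hoxc5 ran from 0.253 to 0.615 CPM and from 0.127 to 0.644 CPM in the cecum, and from 0.108 to 0.521 CPM and from 0.212 to 0.472 CPM in the colon. Both genes, which act in the neck and forelimb region of the embryo, were higher in every ileum library than in any other. The log2 fold change of Hoxc4 for cecum over ileum was -2.4 ± 0.28 on arsenic feed (edgeR adjusted p = 3.72e-06) and -3.23 ± 0.45 on control feed (edgeR adjusted p = 2.99e-05), and it was called lower in the colon than in the ileum on both feeds. Hoxc5 gave -3.72 ± 0.38 on arsenic feed (edgeR adjusted p = 1.05e-06) and -3.75 ± 0.33 on control feed (edgeR adjusted p = 5.54e-07) for colon over ileum and -3.13 ± 0.33 on arsenic feed (edgeR adjusted p = 1.48e-06) and -3.5 ± 0.36 on control feed (edgeR adjusted p = 1.96e-06) for cecum over ileum. With a smooth muscle score as covariate, colon over ileum on arsenic feed called no member lower, with adjusted p = 0.127 for Hoxc5 and 0.199 for Hoxc6. Summed smooth muscle markers did not overlap between these groups, so that fit cannot separate muscle content from region. Adipocyte markers also had their highest means in the ileum, as had T cell markers such as Cd8a. Adipoq averaged 130.9 CPM on arsenic feed and 123.7 CPM on control feed there. It averaged 14.7 and 16.2 CPM in the cecum and 40.3 and 38.4 CPM in the colon. The part of fat and T cells in the HoxC differences was not tested.

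The posterior end of HoxC did not follow its anterior end. Hoxc9 ran from 0 to 1.45 CPM in arsenic ileum and from 0.107 to 0.749 CPM in control ileum, at 0 in the libraries arsenic 14 and 15, and from 0.319 to 0.817 CPM and 0.634 to 1.22 CPM in the cecum. In the colon it held 0.166, 1.3, 0 and 0.162 CPM in arsenic libraries and 0.212, 0.112, 0, 0.054 and 0.157 CPM in control libraries. Colon over cecum its log2 fold change was -2.99 ± 0.58 on control feed (edgeR adjusted p = 0.000857), a call made on that feed alone. Hoxc10, a gene of the lumbar spinal cord, had 0 counts in all 9 ileum libraries, 0.752 to 1.32 CPM in arsenic cecum and 0.579 to 0.896 CPM in control cecum, and in the colon 0 to 0.379 CPM on arsenic feed and 0 to 1 CPM on control feed, the last value in colon control 1. Its log2 fold change for colon over cecum was -2.18 ± 0.6 on arsenic feed (edgeR adjusted p = 0.0137). Hoxc11 summed to 19 counts in arsenic cecum and 6 in control cecum, and to 9 counts in each colon group, with none in the ileum. Hoxc12 had 1 count in 1 control ileum library, and Hoxc13, a gene of hair and nails, had 0 counts in all 27 libraries.

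Hoxa9 and Hoxa10 separated the large intestine from the ileum. Hoxa9, which acts in the trunk and limbs and in blood stem cells, held 0 to 0.15 CPM in arsenic ileum and 0 to 0.187 CPM in control ileum, 7 counts in each group. In the cecum it held 44.5, 54, 49.4, 45.4 and 58.4 CPM in arsenic libraries and 90.6, 81.4, 83.4 and 79.2 CPM in control libraries, and in the colon 41.1, 26.5, 46.7 and 31 CPM and 5.82, 26.7, 36.6, 44.4 and 44.8 CPM. All cecum and colon libraries lay above all ileum libraries, with colon control 1 the lowest of them. Cecum over ileum, the log2 fold change of Hoxa9 was 9.16 ± 0.31 on arsenic feed (edgeR adjusted p = 1.06e-11) and 9.6 ± 0.79 on control feed (edgeR adjusted p = 9.7e-07), and colon over ileum it was 8.78 ± 0.32 on arsenic feed (edgeR adjusted p = 5.16e-11) and 8.2 ± 0.79 on control feed (edgeR adjusted p = 4.65e-06). On control feed the colon was below the cecum, with a change of -1.39 ± 0.41 (edgeR adjusted p = 0.0158). On arsenic feed the change of -0.38 ± 0.18 was not called (edgeR adjusted p = 0.0989), and the libraries overlapped.

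Hoxa10, known for its part in the uterus and hind limb, had 0 counts in all 9 ileum libraries. It held 32.5, 35.8, 33.8, 32 and 37.6 CPM in arsenic cecum and 73.2, 70.7, 44.9 and 56.2 CPM in control cecum. In the colon Hoxa10 held 41.9, 25.9, 41.5 and 30.5 CPM on arsenic feed and 11.4, 41.6, 41.4, 43.2 and 47.1 CPM on control feed. The colon libraries other than colon control 1 ran from 25.9 to 47.1 CPM and overlapped the cecum libraries. Against a floor of 3 counts over the whole ileum group, Hoxa10 in the cecum was at least 996.8-fold higher on arsenic feed (edgeR adjusted p = 2.31e-10) and at least 1438-fold higher on control feed (edgeR adjusted p = 3.04e-06) than in the ileum, and in the colon it was at least 1015-fold higher on arsenic feed (edgeR adjusted p = 3.81e-10) and at least 859.2-fold higher on control feed (edgeR adjusted p = 6.4e-06). Without colon control 1, Hoxa10 on control feed was also lower in the colon than in the cecum, with log2 fold change -0.48 (edgeR adjusted p = 0.0152).

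Hoxa11, the next gene of the cluster and a partner of Hoxa10 in uterus and limb, also had 0 counts in all 9 ileum libraries. It held 2.62, 2.52, 4.42, 2.02 and 2.32 CPM in arsenic cecum and 2.62, 3.03, 2.11 and 1.84 CPM in control cecum. In the colon Hoxa11 held 8.09, 5.1, 5.61 and 6.33 CPM on arsenic feed and 5.08, 4.97, 4.58, 3.56 and 6.97 CPM on control feed. The colon libraries were all above the cecum libraries of their feed. Colon over cecum, the log2 fold change was 1.26 ± 0.25 on arsenic feed (edgeR adjusted p = 0.00252) and 1.07 ± 0.24 on control feed (edgeR adjusted p = 0.00368). In the cecum it was at least 80.8-fold higher on arsenic feed (edgeR adjusted p = 2.75e-07) and at least 56.1-fold higher on control feed (edgeR adjusted p = 3.38e-07) than in the ileum, and in the colon at least 182-fold higher on arsenic feed (edgeR adjusted p = 6.95e-08) and at least 117.9-fold higher on control feed (edgeR adjusted p = 8.25e-08). A share of 35.0% of its exon bases also lies in exons of the antisense transcript Hoxa11os, and the library kit named in the labels does not mark strand, so its counts are uncertain.

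Hoxa13, Hoxb13 and Hoxd13 were highest in the colon. Hoxa13, which acts in the hindgut, genital tubercle and digits, had 0 counts in all ileum libraries and held 2.11, 3.02, 2.4, 1.42 and 1.16 CPM in arsenic cecum and 6.98, 5.09, 0.845 and 3.17 CPM in control cecum. In the colon it held 71.7, 29.3, 57.8 and 41.9 CPM in arsenic libraries and 2.17, 35.4, 62.8, 55.9 and 38.7 CPM in control libraries. The library labelled colon control 1 lay within the cecum values, and the other 8 colon libraries each held 29.3 CPM or more. Its log2 fold change for colon over cecum was 4.71 ± 0.33 on arsenic feed (edgeR adjusted p = 3.92e-06) and 3.27 ± 0.9 on control feed (edgeR adjusted p = 0.0166). With the replicate number as a block in the fit, the control feed call was lost, at 2.75 ± 1.36 (edgeR adjusted p = 0.176). In the cecum Hoxa13 was at least 59-fold higher on arsenic feed and at least 95.5-fold higher on control feed than in the ileum, and in the colon at least 1453-fold higher on arsenic feed and at least 901.8-fold higher on control feed.

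Hoxb13, which is used in the tail bud, rectum and prostate, had 0 counts in all 9 ileum libraries and 1 count in the 9 cecum libraries, in cecum control 5. In the colon it held 161.7, 40.1, 91.3 and 73.5 CPM in arsenic libraries and 0, 68.6, 238.7, 221.4 and 45.8 CPM in control libraries. It had the highest level per exon length among Hox genes in the colon, 41.6 CPM per kb on arsenic feed and 52.1 CPM per kb on control feed, yet it was at 0 in colon control 1. In the colon Hoxb13 was at least 2640-fold higher on arsenic feed and at least 2642-fold higher on control feed than in the ileum. Against the cecum it was at least 2387-fold higher on arsenic feed (edgeR adjusted p = 0.000501), while on control feed the ratio to the cecum, which rests on its 1 count, was 6918 with a 95% counting interval of 1241 to 273287 (edgeR adjusted p = 0.00452).

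Hoxd13, which shapes digits and the anal sphincter, had 0 counts in the ileum and 1 count in the cecum, in cecum arsenic 15. In the colon it held 19.6, 2.45, 3.22 and 5.69 CPM in arsenic libraries and 0.264, 7.42, 31.5, 13 and 1.26 CPM in control libraries. Colon control 1 was again the lowest library, and colon control 3 and colon arsenic 11 were the highest on their feeds. In the colon Hoxd13 was at least 220.4-fold higher on arsenic feed and at least 243.1-fold higher on control feed than in the ileum. Compared with the cecum it was at least 212.2-fold higher on control feed (edgeR adjusted p = 0.0349), a call lost without any 1 of the 4 control cecum libraries (adjusted p from 0.0557 to 0.0576), and on arsenic feed the ratio, which rests on 1 cecum count, was 597.6 with a 95% counting interval of 106.8 to 23645 (edgeR adjusted p = 0.000148). Intervals and floors cover counting error only. Hoxd12, its neighbour, summed to 41 counts in arsenic colon and 64 in control colon, to 3 and 1 counts in the cecum, and to 0 in the ileum.

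**Figure D2:**
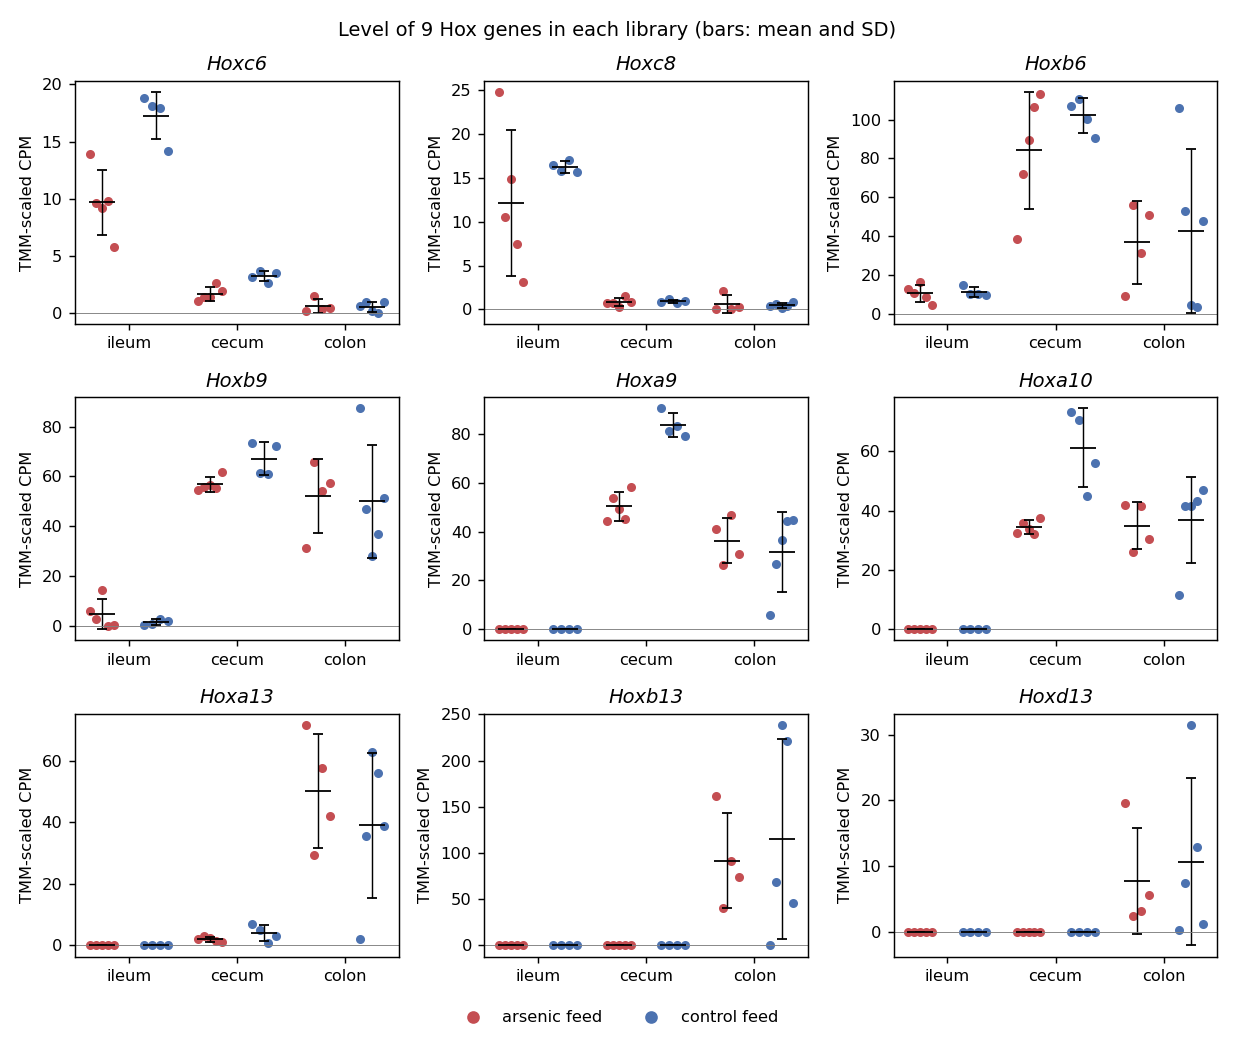
Level in TMM-scaled CPM (vertical axis) of 9 Hox genes in each library of the ileum, cecum and colon, with arsenic feed in red left of control feed in blue; bars are the mean and SD of the 4 or 5 libraries of a group. Hoxc6 and Hoxc8 are highest in the ileum, Hoxa9 and Hoxa10 begin at the cecum, and Hoxb13 and Hoxd13 appear in the colon, except for Hoxb13 in colon control 1, where it is at 0.

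The remaining HoxD genes were low in the ileum and more even between the cecum and colon, except Hoxd11, which was higher in the colon. Hoxd8 held 1.7, 1.82, 1.05, 2.42 and 1.33 CPM in arsenic ileum and 2.43, 1.59, 2.12 and 2.09 CPM in control ileum. In the cecum Hoxd8 held 5.43, 6.1, 6.07, 5.34 and 5.4 CPM on arsenic feed and 4.67, 4.83, 5.5 and 4.5 CPM on control feed. In the colon Hoxd8 held 3.49, 5.52, 2.91 and 4.6 CPM on arsenic feed and 10.5, 5.25, 1.81, 1.24 and 5.35 CPM on control feed. Colon control 3 and 4 fell within the ileum range and colon control 1 was the highest library of all. Cecum over ileum, the change of Hoxd8 was 1.75 ± 0.22 on arsenic feed (edgeR adjusted p = 1.01e-05).

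Hoxd9 held 0.5, 0.455, 0.316, 0.698 and 0.28 CPM in arsenic ileum and 0.621, 0.453, 0.25 and 0.429 CPM in control ileum. In the cecum Hoxd9 held 6.26, 7.99, 8.66, 6.47 and 5.88 CPM on arsenic feed and 4.22, 4.96, 5.43 and 4.18 CPM on control feed. In the colon Hoxd9 held 2.6, 7.76, 2.29 and 5.09 CPM on arsenic feed and 9.15, 2.62, 1.64, 1.13 and 3.51 CPM on control feed. Every cecum and colon library exceeded every ileum library. Its log2 fold change for cecum over ileum was 3.92 ± 0.36 on arsenic feed (edgeR adjusted p = 3.94e-07), and for colon over ileum it was 3.34 ± 0.37 on arsenic feed (edgeR adjusted p = 2.87e-06).

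Hoxd10, which like Hoxd9 acts in the lumbar region and hind limb, had 1 count in the 9 ileum libraries, in ileum control 1. It held 5.36, 5.6, 3.41, 3.56 and 3.28 CPM in arsenic cecum and 2.82, 3.03, 4.09 and 2.79 CPM in control cecum. In the colon Hoxd10 held 3.21, 3.49, 1.4 and 3.63 CPM on arsenic feed and 6.19, 3.41, 3.28, 1.94 and 1.63 CPM on control feed. On arsenic feed it was at least 123.5-fold higher in the cecum (edgeR adjusted p = 3.76e-07) and at least 85-fold higher in the colon (edgeR adjusted p = 8.81e-07) than in the ileum. On control feed, against 1 ileum count, the ratio was 221.1 in the cecum with an interval of 39.2 to 8777 (edgeR adjusted p = 1.11e-06) and 230.4 in the colon with an interval of 41 to 9129 (edgeR adjusted p = 1.07e-06).

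Hoxd11 had 0 counts in the ileum and held 0.574, 0.943, 1.01, 0.653 and 0.41 CPM in arsenic cecum and 0.448, 1.29, 0.352 and 0.444 CPM in control cecum. In the colon Hoxd11 held 2.82, 2.97, 1.3 and 1.62 CPM on arsenic feed and 2.86, 1.73, 3.62, 1.35 and 1.05 CPM on control feed. On arsenic feed the colon libraries were all above the cecum libraries, and on control feed 1 cecum library, control 2, reached into the colon range. For colon over cecum the log2 fold change was 1.67 ± 0.36 on arsenic feed (edgeR adjusted p = 0.0034) and 1.73 ± 0.49 on control feed (edgeR adjusted p = 0.014). In the colon Hoxd11 was at least 63.2-fold higher on arsenic feed and at least 49.2-fold higher on control feed than in the ileum. Hoxd4, an anterior gene, held 0.2, 0.195, 0.316, 0.161 and 0 CPM in arsenic ileum and 0.169, 0.623, 0.187 and 0.375 CPM in control ileum. In the cecum Hoxd4 held 1.09, 1.26, 1.07, 1.48 and 2.6 CPM on arsenic feed and 1.02, 1.09, 0.986 and 0.887 CPM on control feed. In the colon Hoxd4 held 0.775, 1.77, 1.14 and 0.596 CPM on arsenic feed and 2.43, 1.56, 0.34, 0.324 and 1.1 CPM on control feed. It was called higher in the colon than in the ileum on both feeds, and in the cecum on arsenic feed, where the groups did not overlap. A share of 52.3% of its exon bases is shared with Hoxd3 and other transcripts, and 62.9% of those of Hoxd3, so both counts are uncertain. Hoxd3 summed to 6 and 7 counts in arsenic and control ileum, 30 and 10 in the cecum and 40 and 46 in the colon. Hoxd1 had 3 and 5 counts in arsenic and control colon and none elsewhere.

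In HoxB each gene from Hoxb3 to Hoxb9 was called higher in the cecum than in the ileum on both feeds, except Hoxb8 on control feed, and none of them was called between the colon and the cecum on either feed. Hoxb6, a trunk gene, had the highest level per exon length of the Hox genes in the cecum, 42.8 CPM per kb on arsenic feed and 52 CPM per kb on control feed. It held 12.6, 11, 16.4, 8.7 and 4.83 CPM in arsenic ileum and 15.1, 10.3, 10.5 and 9.81 CPM in control ileum. In the cecum it held 38.6, 72.1, 89.7, 106.7 and 113.4 CPM in arsenic libraries and 107.1, 110.5, 100.3 and 90.6 CPM in control libraries, and in the colon 9.03, 56.1, 31.4 and 50.8 CPM and 105.9, 52.8, 4.36, 3.4 and 47.6 CPM. All cecum libraries were above all ileum libraries, and Hoxb6 was called higher in the cecum on both feeds. Colon libraries spread from below the ileum values, in colon control 3 and 4, to 105.9 CPM, within the cecum range, in colon control 1, and colon over cecum missed the threshold (edgeR adjusted p = 0.0799 on arsenic feed and 0.192 on control feed). On arsenic feed Hoxb6 was called lower in the colon without ileum arsenic 15 (edgeR adjusted p = 0.045) or cecum arsenic 11 (0.0296) and by DESeq2 (0.0186).

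Hoxb9, the last trunk gene before the gap in the cluster, held 6.15, 2.86, 14.6, 0.0537 and 0.35 CPM in arsenic ileum and 0.565, 0.793, 3.06 and 1.98 CPM in control ileum. In the cecum it held 54.6, 55.8, 56.4, 55.4 and 62 CPM in arsenic libraries and 73.5, 61.5, 61.2 and 72.4 CPM in control libraries, and in the colon 31.2, 65.7, 54.2 and 57.3 CPM and 87.3, 46.9, 28.1, 37.1 and 51.2 CPM. The cecum and colon groups overlapped each other and were apart from the ileum, where the arsenic libraries alone spanned values from 0.0537 to 14.6 CPM, the low ones in libraries 14 and 15 that also held the least Fabp6. Cecum over ileum, the log2 fold change of Hoxb9 was 5.39 ± 0.47 on control feed (edgeR adjusted p = 1.32e-06), and colon over ileum it was 4.98 ± 0.46 on control feed (edgeR adjusted p = 2.76e-06).

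Hoxb7 held 6.45, 5.65, 7.96, 4.94 and 2.38 CPM in arsenic ileum and 5.93, 5.84, 6.12 and 4.02 CPM in control ileum. In the cecum Hoxb7 held 15.3, 18.6, 16.1, 18.3 and 20 CPM on arsenic feed and 25.9, 21, 23 and 22.3 CPM on control feed. In the colon Hoxb7 held 3.1, 14.9, 6.55 and 11.3 CPM on arsenic feed and 31.7, 11, 2.09, 1.03 and 9.49 CPM on control feed. Its neighbour Hoxb8, which acts in blood cell precursors and the spinal cord, held 5.2, 3.9, 5.43, 5.86 and 5.11 CPM in arsenic ileum and 4.63, 3.91, 3.99 and 3.32 CPM in control ileum. In the cecum Hoxb8 held 12.6, 10.9, 19.3, 17.5 and 19.1 CPM on arsenic feed and 24.5, 14.9, 15.7 and 16 CPM on control feed. In the colon Hoxb8 held 1.99, 15.9, 7.33 and 11.3 CPM on arsenic feed and 22.1, 8.99, 0.509, 0.378 and 7.6 CPM on control feed. Hoxb7 in every arsenic colon library was below every cecum library, while the other colon groups of both genes overlapped the cecum, and all of them overlapped the ileum, with colon control 3 and 4 and colon arsenic 11 low and colon control 1 high. Cecum over ileum called Hoxb7 on both feeds and Hoxb8 on arsenic feed, while Hoxb8 on control feed missed the threshold at an edgeR adjusted p of 0.0566. Without colon control 1, colon over cecum on control feed called Hoxb7 and Hoxb8 lower, with a log2 fold change of -1.94 for Hoxb7 (edgeR adjusted p = 0.0135), and Hoxb8 at an edgeR adjusted p of 0.0422.

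Hoxb4, known for its use in expanding blood stem cells, held 5.25, 3.77, 3.96, 4.03 and 2.87 CPM in arsenic ileum and 6.83, 8.16, 4.87 and 3.91 CPM in control ileum. In the cecum Hoxb4 held 8.55, 10.8, 14.3, 14 and 15.6 CPM on arsenic feed and 21.1, 16.5, 15.9 and 19.5 CPM on control feed. In the colon Hoxb4 held 4.04, 10, 8.26 and 10 CPM on arsenic feed and 17.7, 11.7, 3.56, 3.13 and 10.1 CPM on control feed. Hoxb5, which acts upstream of Ret in precursors of the enteric nervous system, held 5.05, 4.29, 5.75, 4.35 and 3.85 CPM in arsenic ileum and 5.54, 3.63, 3.93 and 3.32 CPM in control ileum. In the cecum Hoxb5 held 14, 18.2, 24.1, 22.3 and 25.8 CPM on arsenic feed and 20.4, 22.7, 22.5 and 20.2 CPM on control feed. In the colon Hoxb5 held 7.92, 20.8, 13.1 and 16.3 CPM on arsenic feed and 23.7, 17.6, 6, 3.62 and 15.4 CPM on control feed. Both were higher in each cecum library than in each ileum library, and both were called higher there on both feeds. The log2 fold change of Hoxb5 for cecum over ileum was 2.15 ± 0.23 on arsenic feed (edgeR adjusted p = 2.25e-06), and that for colon over ileum was 1.71 ± 0.24 on arsenic feed (edgeR adjusted p = 2.92e-05).

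Hoxb3 held 2.45, 1.3, 1.58, 1.4 and 1.26 CPM in arsenic ileum and 2.03, 1.47, 1.69 and 1.5 CPM in control ileum. In the cecum Hoxb3 held 5.62, 6.54, 7.14, 8.43 and 11.3 CPM on arsenic feed and 9.98, 7.34, 8.31 and 8.11 CPM on control feed. In the colon Hoxb3 held 3.54, 7.65, 4.78 and 5.2 CPM on arsenic feed and 8.2, 6.81, 2.66, 0.864 and 6.03 CPM on control feed. Its cecum over ileum change was 2.26 ± 0.26 on arsenic feed (edgeR adjusted p = 3.48e-06), and 52.9% of its exon bases are shared with Hoxb3os. Hoxb2, a hindbrain gene, was low in all regions and held 0.3, 0.455, 0.316, 0.591 and 0.21 CPM in arsenic ileum and 1.19, 1.53, 0.437 and 0.375 CPM in control ileum. In the cecum Hoxb2 held 0.191, 1.13, 0.316, 0.415 and 0.547 CPM on arsenic feed and 0.512, 0.644, 0.282 and 0.38 CPM on control feed. In the colon Hoxb2 held 0.886, 1.2, 1.3 and 0.866 CPM on arsenic feed and 1.32, 1.06, 1.53, 0.918 and 1.68 CPM on control feed. The colon was above the cecum, with log2 fold change 1.11 ± 0.4 on arsenic feed (edgeR adjusted p = 0.0402) and 1.5 ± 0.43 on control feed (edgeR adjusted p = 0.0109), and the arsenic feed call was lost in 9 of 14 fits that left out 1 library, those without ileum arsenic 15, cecum arsenic 11, 13, 14 or 15 or any arsenic colon library (adjusted p from 0.0531 to 0.127). Hoxb1 had 2 counts in 1 arsenic cecum library and none elsewhere.

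**Figure D3:**
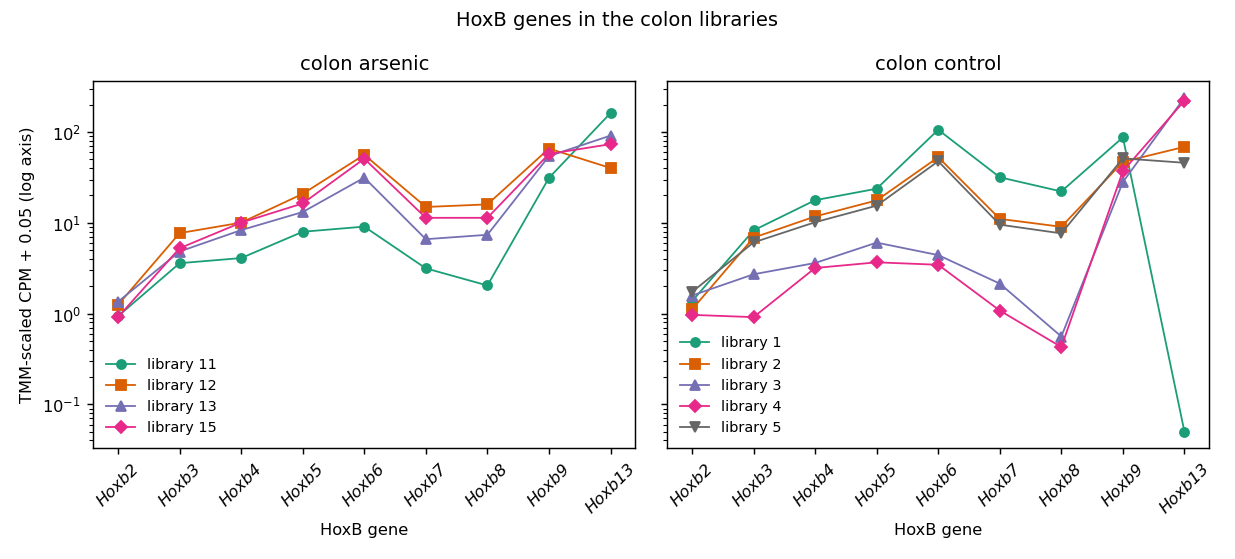
TMM-scaled CPM plus 0.05 (vertical log axis) of 9 HoxB genes (horizontal axis, in cluster order) in the colon libraries, 1 line per library, with arsenic at left and control at right. Control 3 and 4 and arsenic 11 are lowest from Hoxb4 to Hoxb8 and highest at Hoxb13 on their feeds, and control 1 is highest from Hoxb3 to Hoxb9 and at 0 for Hoxb13.

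Colon libraries differed widely among themselves. Hoxb6, Hoxb8 and Hoxd9 had coefficients of variation of 98.7%, 112% and 89.4% in control colon, against 8.61%, 25.3% and 12.8% in control cecum. In arsenic colon they were 58%, 64.7% and 57.4%, against 35.7%, 24.4% and 17.1% in arsenic cecum. The libraries were not grouped by these values, and what set them apart was not tested. Summed levels of smooth muscle markers were 10376 CPM in colon arsenic 11 and 5818 CPM in colon control 1, the highest and lowest of the 9 colon libraries.

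Most anterior HoxA genes were found in all regions and were higher in the cecum and colon, but Hoxa4 was not. Hoxa7, the most abundant of them per exon length in the cecum at 11.7 CPM per kb on arsenic feed and 13.9 CPM per kb on control feed, held 5.25, 5.78, 3.16, 5 and 3.01 CPM in arsenic ileum and 6.04, 4.48, 3.87 and 4.72 CPM in control ileum. In the cecum Hoxa7 held 29.7, 36.6, 35, 31.9 and 35 CPM on arsenic feed and 46.6, 35.5, 38.3 and 39.9 CPM on control feed. In the colon Hoxa7 held 32.8, 22.1, 40.5 and 30.7 CPM on arsenic feed and 14.2, 24.6, 30.4, 33.5 and 33.8 CPM on control feed. No ileum library reached a cecum or colon library. Its log2 fold change for cecum over ileum was 2.91 ± 0.19 on arsenic feed (edgeR adjusted p = 1.21e-08) and 3.06 ± 0.25 on control feed (edgeR adjusted p = 2.15e-07), and for colon over ileum it was 2.9 ± 0.2 on arsenic feed (edgeR adjusted p = 2.19e-08) and 2.51 ± 0.24 on control feed (edgeR adjusted p = 1.25e-06). Colon over cecum gave -0.55 ± 0.21 on control feed (edgeR adjusted p = 0.0434), a call lost in 8 of 13 fits that left out 1 library, those without ileum control 2 or 5, any control cecum library or colon control 2 or 3 (adjusted p from 0.0501 to 0.116), and under RLE and upper-quartile scaling, both other filters on low counts and DESeq2. A share of 20.4% of its exon bases is also in the antisense transcript Hoxaas3.

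Hoxa5, needed in the mouse for maturation of the gut and lung, held 5.3, 4.29, 2.32, 5.7 and 5.67 CPM in arsenic ileum and 7.74, 7.31, 4.06 and 3.75 CPM in control ileum. In the cecum Hoxa5 held 5.11, 9.56, 13.3, 15.3 and 16.1 CPM on arsenic feed and 16.9, 17.6, 10.1 and 12.6 CPM on control feed. In the colon Hoxa5 held 14, 14, 19.8 and 18.4 CPM on arsenic feed and 5.98, 16.6, 16, 18.2 and 19.3 CPM on control feed. Colon control 1 and cecum arsenic 11 were within the ileum range, and the other cecum and colon libraries were above it. Hoxa5 was called higher in the cecum and in the colon than in the ileum on both feeds. Its neighbour Hoxa6 held 0.6, 0.649, 0.316, 0.645 and 0.98 CPM in arsenic ileum and 0.565, 1.02, 0.374 and 0.536 CPM in control ileum. In the cecum Hoxa6 held 1.4, 3.33, 4.11, 4.63 and 5.33 CPM on arsenic feed and 3.46, 5.79, 4.16 and 3.11 CPM on control feed. In the colon Hoxa6 held 2.6, 2.24, 4.73 and 4.87 CPM on arsenic feed and 0.582, 4.58, 6.28, 8.2 and 5.19 CPM on control feed. Hoxa6 was likewise called higher in both regions on both feeds, and colon control 1 was the one library of the large intestine within the ileum range.

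Hoxa3, which builds the thymus and parathyroid, held 1.95, 2.53, 1.48, 3.6 and 2.52 CPM in arsenic ileum and 2.94, 3.34, 2.18 and 1.98 CPM in control ileum. In the cecum Hoxa3 held 4.91, 5.72, 7.71, 7.42 and 9.09 CPM on arsenic feed and 7.81, 7.53, 7.68 and 6.53 CPM on control feed. In the colon Hoxa3 held 9.58, 7.08, 10.3 and 7.63 CPM on arsenic feed and 5.5, 7.54, 9.68, 12.1 and 10.2 CPM on control feed. Its log2 fold change for colon over ileum was 1.92 ± 0.24 on arsenic feed (edgeR adjusted p = 8.02e-06) and 1.78 ± 0.23 on control feed (edgeR adjusted p = 1.86e-05), with 27.1% of its exon bases shared with other transcripts. Hoxa2, a gene of the hindbrain and second branchial arch, held 0.4, 0.39, 0.105, 0.752 and 0.77 CPM in arsenic ileum and 0.678, 0.51, 0.437 and 0.429 CPM in control ileum. In the cecum Hoxa2 held 2.3, 1.13, 2.4, 1.72 and 1.98 CPM on arsenic feed and 1.86, 2.51, 2.33 and 2.22 CPM on control feed. In the colon Hoxa2 held 2.77, 2.13, 4.52 and 2.33 CPM on arsenic feed and 1.69, 1.45, 2.77, 2.48 and 2.41 CPM on control feed. The ileum libraries were all below the others for Hoxa2 and for Hoxa3. Colon over ileum Hoxa2 gave 2.06 ± 0.26 on control feed (edgeR adjusted p = 1.82e-05), and cecum over ileum it gave 2.09 ± 0.27 on control feed (edgeR adjusted p = 1.82e-05). Hoxa4 ran from 0.422 to 1.34 CPM in arsenic ileum and 0.51 to 1.02 CPM in control ileum, and from 0.19 to 0.937 CPM in the cecum and colon. Cecum over ileum called it lower on control feed alone.

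Fold changes were set against the paralog numbers as a description. Of the 12 posterior members tested, 7 (Hoxa10, Hoxa11, Hoxa13, Hoxb13, Hoxc10, Hoxd11 and Hoxd13) had 0 counts in the ileum, so they passed the filter only through a region where they were high and their fitted values against the ileum depend on the prior count. Among ileum libraries alone, only 1 posterior member, Hoxb9, passed the filter. The other posterior members therefore needed cecum or colon libraries to pass, and the rho values against the ileum rest in large part on such members. Over the 31 members tested, Spearman's rho between paralog number and the log2 fold change for colon over ileum was 0.63 on arsenic feed and 0.66 on control feed, and for cecum over ileum it was 0.43 and 0.51. Within clusters the rho for colon over ileum on arsenic and control feed was 0.83 and 0.87 for 10 HoxA genes, 0.33 and 0.68 for 9 HoxB genes, 0.43 and 0.43 for 6 HoxC genes, and 0.89 and 0.94 for 6 HoxD genes. For cecum over ileum it was 0.78 and 0.79 in HoxA, -0.02 and 0.33 in HoxB, 0.49 and 0.6 in HoxC, and 0.03 and 0.03 in HoxD. The HoxB and HoxD values there include Hoxb13 and Hoxd13, which had at most 1 count in the cecum group and 0 in the ileum. Their change between these regions is not measured, so a value near 0 does not show that the other genes of the cluster lack an order. Between colon and cecum the rho over the 31 members was 0.17 on arsenic feed and 0.11 on control feed. These values describe genes within the same libraries, which share neighbours and are not independent replicates. Of 12 posterior members tested for colon over ileum, 11 were called higher on each feed with 0 lower on arsenic feed and 1, Hoxc9, lower on control feed, a count that the filter fixes in large part. Of 19 anterior members tested, 12 were called higher and 4 lower on arsenic feed, and 9 higher and 4 lower on control feed. The 4 lower were HoxC genes on both feeds.

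The colon differed from the cecum in more than its Hox genes. All 9 smooth muscle markers, all 9 markers of enteric neurons and glia and all 7 fibroblast markers were called higher in the colon than in the cecum on both feeds. Smooth muscle markers summed to 6932 to 10376 CPM in arsenic colon and 5818 to 8255 CPM in control colon, against 3366 to 5493 CPM and 2925 to 3977 CPM in the cecum. With a smooth muscle score as covariate, colon over cecum called 1 member on arsenic feed, Hoxb13 higher, and 1 on control feed, Hoxc6 lower, and the count over all genes was 100 and 610. The summed markers of colon and cecum did not overlap on either feed, so this fit cannot separate muscle content from region. The part of neurons, glia and fibroblasts in the calls of the colon over the cecum or ileum was not tested. These markers were also higher in the colon than in the ileum, with 9 of 9 smooth muscle, 9 of 9 neuron and glia and 6 of 7 fibroblast markers called on arsenic feed, 5, 9 and 4 on control feed, and 0 lower. Smooth muscle markers summed to 3839 to 4273 CPM in arsenic ileum and 3760 to 7207 CPM in control ileum. With the smooth muscle score as covariate, colon over ileum called 18 members higher and 0 lower on arsenic feed and 12 higher and 4 lower on control feed. On arsenic feed the sums of colon and ileum did not overlap either, so the same limit holds there. For cecum over ileum, 2 of 9 smooth muscle, 1 of 9 neuron and glia and 0 of 7 fibroblast markers were higher on arsenic feed, with 0, 2 and 2 lower, and on control feed 0 were higher and 6, 4 and 4 lower. Leaving out colon control 1, colon over cecum on control feed called 6 members higher and 10 lower, where the lower ones now held Hoxa10, Hoxb4, Hoxb7, Hoxb8 and Hoxd9 (edgeR adjusted p from 0.0101 to 0.0422), and cecum over ileum also called Hoxb8, Hoxd4 and Hoxd8 higher (0.0166 to 0.0309). Colon control 1 was set apart partly by its Hoxb13 count. It held the highest control colon values of Hoxb4, Hoxb7, Hoxb8 and Hoxd9, so leaving it out lowers their colon means by construction. Of 5 endothelial markers, 3 were higher in the colon than in the cecum on arsenic feed and 4 on control feed, of 5 adipocyte markers 0 were called on either feed, and 1 pancreas marker, Cela1, was higher on each feed. Cela1 was the only pancreas marker tested between regions on control feed, where Pnlip ran from 0 to 165.2 CPM among the colon libraries. On arsenic feed Cela1, Pnlip, Cpa1 and Ctrb1 were called higher in the colon than in the ileum. Without colon arsenic 12 or without cecum arsenic 11, colon over cecum on arsenic feed called 8 members lower, and without ileum arsenic 15 it called 6, with Hoxa9, Hoxb4, Hoxb6 and Hoxb7 added (edgeR adjusted p from 0.0197 to 0.045). Without ileum arsenic 14 and 15 together, Hoxa9 (edgeR adjusted p = 0.0415) and Hoxb7 (0.0455) were added.

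Arsenic feed was compared with control feed within each region. In the ileum 17 members passed the filter and 1 was called, 5.88% against 7.3% of all 16305 genes (4.02% higher and 3.28% lower). Hoxc6 was lower on arsenic feed, at 13.9, 9.67, 9.23, 9.78 and 5.81 CPM against 18.8, 18.1, 17.9 and 14.2 CPM on control feed, with no overlap between the groups, as for 13.4% of all genes. The log2 fold change of Hoxc6 was -0.86 ± 0.21 (edgeR adjusted p = 0.0371). The call was lost in 7 of the 9 fits that left out 1 library (edgeR adjusted p from 0.0514 to 0.116), which were those without arsenic 12, 13 and 14 and control 1, 2, 3 and 5, and without arsenic 14 and 15 together (0.0726).

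In the cecum 26 members passed the filter, and 1 was called higher and 5 lower on arsenic feed. That is 23.1% of them, close to the 25.2% of all 15590 genes called (11.3% higher and 13.9% lower), so the number of calls is not a result about Hox genes. Hoxa9 held 50.3 ± 5.88 CPM on arsenic feed and 83.6 ± 4.93 CPM on control feed, with every library at 44.5 to 58.4 CPM against 79.2 to 90.6 CPM. The log2 fold change of Hoxa9 was -0.69 ± 0.08 (edgeR adjusted p = 4.65e-05). Hoxa10 held 34.3 ± 2.32 CPM against 61.3 ± 13.2 CPM, and its change was -0.8 ± 0.12 (edgeR adjusted p = 0.000843). For both genes the groups did not overlap, as for 22.2% of all genes.

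The other 4 calls were smaller or rested on fewer counts. Hoxb7 held 17.7 ± 1.93 CPM on arsenic feed and 23.1 ± 2.04 CPM on control feed, changed by -0.35 ± 0.09 (edgeR adjusted p = 0.013). Hoxb4 held 12.7 ± 2.92 CPM against 18.2 ± 2.49 CPM, at -0.49 ± 0.16 (edgeR adjusted p = 0.0359). Hoxc6 held 1.7 ± 0.632 CPM against 3.24 ± 0.437 CPM, at -0.89 ± 0.25 (edgeR adjusted p = 0.0173). The gene that was higher on arsenic feed was Hoxd9, at 7.05 ± 1.2 CPM against 4.7 ± 0.601 CPM and 0.63 ± 0.16 (edgeR adjusted p = 0.0113). The groups did not overlap for any of the 4 (n = 5 arsenic and 4 control libraries for all 6 genes).

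None of the 6 cecum calls held in a fit of all 27 libraries, which shares 1 estimate of the spread with the more variable ileum and colon: the adjusted p was 0.143 for Hoxa9, 0.068 for Hoxa10, 0.393 for Hoxd9, 0.72 for Hoxb7, 0.153 for Hoxc6 and 0.377 for Hoxb4. With the smooth muscle score as covariate, Hoxa9 (edgeR adjusted p = 0.00233) and Hoxa10 (0.0148) remained called and the other 4 did not (0.169 to 0.589). Hoxb4 was lost without cecum control 1, 2 or 5 or arsenic 12 (0.0534 to 0.108), and Hoxc6 without control 2 (0.0505). Other cell markers moved in the cecum at the same time. On arsenic feed 4 of 9 smooth muscle, 3 of 7 fibroblast and 4 of 11 B and T cell markers were higher and 3 of 8 epithelial and 4 of 6 tested large intestine markers lower. Smooth muscle markers summed to 3366 to 5493 CPM in arsenic cecum and 2925 to 3977 CPM in control cecum, epithelial markers to 18213 to 21601 CPM and 21438 to 23668 CPM, and B and T cell markers to 30.5 to 196 CPM and 18.5 to 59.2 CPM. Apart from the smooth muscle covariate, their part in the Hox differences was not tested.

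**Figure D4:**
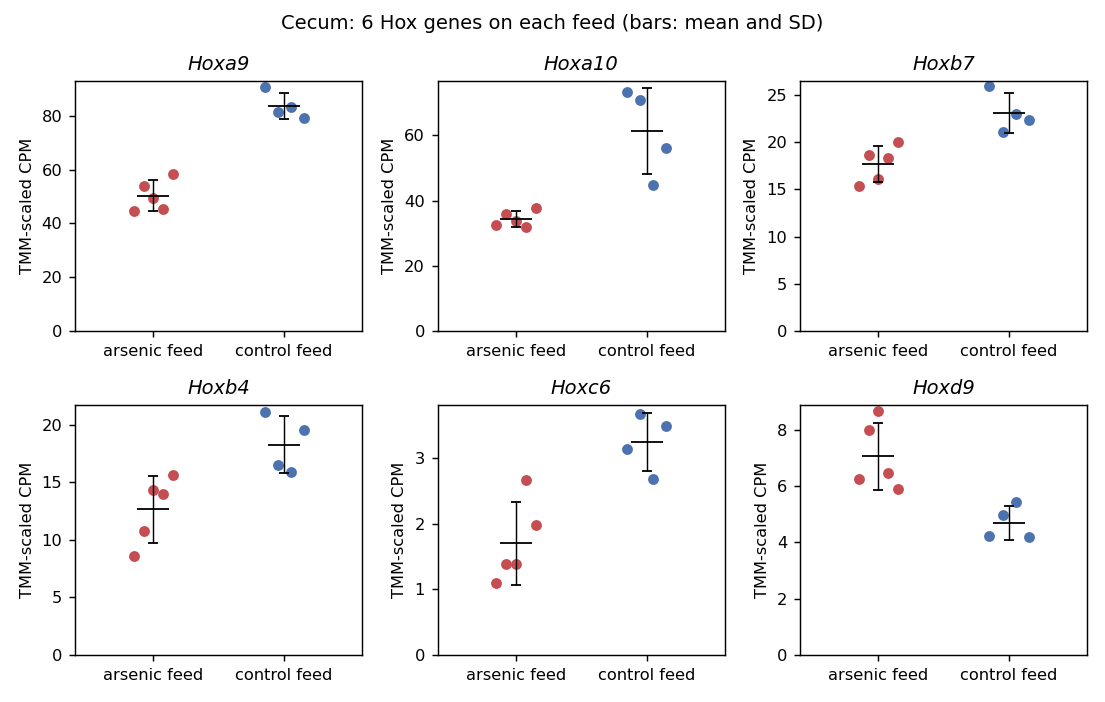
TMM-scaled CPM (vertical axis) in the cecum libraries of the 6 Hox genes called between the feeds, with 5 arsenic libraries left of 4 control libraries; bars are the mean and SD. Hoxa9 and Hoxa10 are lower on arsenic feed without overlap, and Hoxd9 is higher.

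In the colon none of 29 members tested was called by edgeR, where 0.649% of all 16492 genes were (0.364% higher and 0.285% lower); 0 had an unadjusted p under 0.05, and DESeq2 called 0. The lowest colon p was that of Hoxa2, at 2.94 ± 1.09 CPM on arsenic feed (n = 4) and 2.16 ± 0.562 CPM on control feed (n = 5), with a log2 difference of 0.45 ± 0.28 (edgeR adjusted p = 0.519). Hoxa9 held 36.4 ± 9.24 CPM in arsenic colon and 31.7 ± 16.2 CPM in control colon, and Hoxa10 34.9 ± 8 CPM and 36.9 ± 14.5 CPM. These 3 genes were chosen for mention after their colon values were seen.

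Whether the arsenic effect differed between regions was tested directly in a fit of all 27 libraries. None of 33 members tested was called for cecum minus ileum, colon minus cecum or colon minus ileum, where 11.4%, 0% and 2.25% of all 17763 genes were (2.88%, 0% and 0.512% higher and 8.49%, 0% and 1.73% lower). At an unadjusted p under 0.05 there was 1 member, 0 and 0, and DESeq2 called 0 in each. So the calls in the cecum and their absence in the colon are not shown to differ: for colon minus cecum the difference was 0.93 ± 0.45 for Hoxa9 (edgeR adjusted p = 0.688) and 0.76 ± 0.4 for Hoxa10 (edgeR adjusted p = 0.733) on the log2 scale. Without ileum arsenic 14 and 15, Hoxb9 was called for cecum minus ileum at -2.56 (edgeR adjusted p = 0.0147). Those libraries held its lowest arsenic ileum values, so leaving them out raises its arsenic ileum mean by construction.

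Of the genes in and beside the Hox clusters, Hottip, Evx2 and Hoxa11os were highest in the colon, as the group 13 genes were, and others were less uniform. For colon over cecum the log2 fold change of Hoxa11os was 5.09 ± 0.37 on arsenic feed (edgeR adjusted p = 2.56e-06) and 3.67 ± 0.7 on control feed (0.0017). Hottip, a long non-coding RNA at the Hoxa13 end of HoxA, had 0 counts in the ileum, 0 to 2 counts in arsenic cecum libraries and 0 to 4 in control ones. In the colon it held 21.4, 7.91, 19.3 and 12.8 CPM in arsenic libraries and 0, 7.87, 18.6, 21.4 and 11.8 CPM in control libraries, with colon control 1 at 0. Evx2, the homeobox gene beside Hoxd13, was at 0 in the ileum and cecum and held 0.26 to 3.05 CPM in arsenic colon and 0 to 3.24 CPM in control colon, again at 0 in colon control 1. Evx1, beside Hoxa13, was at 0 in the ileum, at 0.566 to 0.957 CPM in arsenic cecum and 0.282 to 3.2 CPM in control cecum, and at 0.833 to 2.49 CPM in arsenic colon and 0 to 1.51 CPM in control colon. Colon over cecum, Evx1 was called higher on arsenic feed, at 1.2 ± 0.39 (edgeR adjusted p = 0.0302), and was not called on control feed, at -0.95 ± 0.77 (0.337). Hoxaas3 was likewise called higher on arsenic feed alone, at 0.78 ± 0.29 (0.0453). Hoxb5os, Hoxb3os and Hoxaas2 were not called on either feed, and Hoxd3os1 was lower on arsenic feed, at -1.53 ± 0.5 (0.0257). Of the list of 14 non-coding and Evx genes of the clusters, 8 were tested and 6 were higher in the colon than in the ileum on arsenic feed and 7 on control feed, with 0 lower. Those at 0 in the ileum passed the filter only through a region where they were high, which fixes these counts in part. In the cecum on arsenic feed Hoxd3os1 was higher, at 1.19 ± 0.35 (edgeR adjusted p = 0.0208).

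Partners and regulators of Hox proteins moved less uniformly. Of 9 TALE cofactors, the Pbx, Meis and Pknox proteins that bind DNA together with Hox proteins, 5 were higher and 2 lower in the colon than in the ileum on arsenic feed and 4 and 1 on control feed. Pbx3 was higher, at 1.3 ± 0.14 on arsenic feed (edgeR adjusted p = 2.14e-06) and 1.02 ± 0.17 on control feed (0.00023) on the log2 scale with SE, Meis3 at 0.95 ± 0.12 (1.18e-05) and 0.68 ± 0.17 (0.00343), and Pbx4 was lower, at -2.15 ± 0.28 (1.23e-05) and -2.41 ± 0.31 (2.18e-05). Cdx factors drive posterior Hox genes in the embryo. Cdx4 was at 0, and Cdx1 was higher in the colon than in the ileum, at 0.61 ± 0.14 (edgeR adjusted p = 0.00147) and 0.9 ± 0.24 (0.00769). Cdx2 was not called between colon and ileum, at 0.03 ± 0.13 on arsenic feed (edgeR adjusted p = 0.837) and 0.57 ± 0.26 on control feed (0.0803), and was lower in the colon than in the cecum, at -0.45 ± 0.13 (0.0136) and -1.2 ± 0.26 (0.00207). Between the feeds Cdx2 was higher on arsenic feed in the ileum, at 0.82 ± 0.14 (edgeR adjusted p = 0.0125), and lower in the cecum, at -0.39 ± 0.09 (0.00528).

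Of 18 Polycomb and Trithorax genes, which keep Hox genes silent or active, 4 were higher and 7 lower in the colon than in the ileum on arsenic feed and 4 and 6 on control feed, so they moved in both directions. Of all genes, 59.1% and 52.2% were called in this comparison on arsenic and control feed. The number of calls in these lists is therefore not read as a result about them. Suz12 and Ezh2, core Polycomb subunits, were lower at -0.71 ± 0.07 (edgeR adjusted p = 1.37e-06) and -0.63 ± 0.1 (5.69e-05) on arsenic feed. In the cecum, Men1, a subunit of a Trithorax complex, was lower on arsenic feed at -0.62 ± 0.09 (edgeR adjusted p = 0.000328), as was Ezh1 at -0.43 ± 0.07 (0.000587), and Cbx7 was higher at 0.64 ± 0.12 (0.00211). Of 12 retinoic acid genes tested from a list of 15, 3 were higher and 4 lower in the colon than in the ileum on arsenic feed and 2 and 4 on control feed, among them the receptor Rarg at 1.08 ± 0.12 (edgeR adjusted p = 3.86e-06) and 1.16 ± 0.19 (0.000188). Of 5 gut mesoderm factors tested, 3 were higher and 1 lower on arsenic feed and 2 and 1 on control feed.

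Between the cecum and the ileum, these lists also moved in both directions, where 52.2% and 54.9% of all genes were called on arsenic and control feed. TALE cofactors had 2 higher and 5 lower in the cecum on arsenic feed and 2 and 4 on control feed, Polycomb and Trithorax genes 3 and 9, and 4 and 4, retinoic acid genes 5 and 5, and 6 and 4, and gut mesoderm factors 1 and 1, and 1 and 2. Both Cdx genes tested were higher on each feed, and 6 and 5 of the 8 non-coding and Evx genes tested were higher with 0 lower. Between the feeds, the ileum had the TALE gene Pbx2 higher on arsenic feed at 0.43 ± 0.08 (edgeR adjusted p = 0.0167) and the retinoid receptor gene Rxra at 0.79 ± 0.14 (0.0128). In the cecum Aldh1a3, which makes retinoic acid, was higher at 0.82 ± 0.2 (edgeR adjusted p = 0.00728), and the mesoderm factors Foxf1 and Foxf2 were higher at 0.69 ± 0.17 (0.0113) and 0.68 ± 0.21 (0.027). In the colon Cbx7 was called higher, at 0.43 ± 0.08 (edgeR adjusted p = 0.0478), and no other gene of these lists was called there.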

How the data were processed

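Poly-A RNA of 27 libraries from mouse ileum, cecum and colon was sequenced as paired ends, per the labels' protocols. The deposited values are raw counts per gene, not normalized. Per the submitters' processing notes the tools included SAMtools, HISAT2 2.1.0, HTSeq 0.6.0 and DESeq2 1.6.3. The build, annotation and strand setting of the counting are not given in the sources used here, and the library kit in the labels does not mark strand. No 2 libraries of the same group agreed within sampling noise, and pairs across groups were not compared.

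Counts were analysed with edgeR 4.0.16 in R 4.3.3 (TMM, factors 0.824 to 1.125; low counts filtered by filterByExpr at its count minimum of 10 and total of 15; robust quasi-likelihood F-test; Benjamini-Hochberg adjustment over all genes tested). Region comparisons fitted the 3 regions of 1 feed together, diet comparisons the 9 libraries of 1 region, and interactions all 27. Folds against a group at 0 use a floor of 3 counts over the group. The SE of an edgeR fold change was worked back from the F-test, as the absolute log2 fold change over the square root of F. It is no guide to the spread where a group is at 0. Alternatives were RLE and upper-quartile scaling, no filter, a filter of 1 CPM in 4 libraries, DESeq2 1.42.0, leaving out each library, a replicate block, a fit of all 27 libraries, a smooth muscle score as covariate, and leaving out ileum arsenic 14 and 15. The fits were tested on simulated data.

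Members with a group mean of at least 1 CPM have their value in each library given; fold, SE and adjusted p are given for at most 12 called members of smallest p per region comparison and for each member called between feeds, and for up to 3 called genes per pathway list. The members, the 16 gene lists and the libraries left out were chosen with earlier results of these data known. Exons come from GENCODE M21 and promoters from RefSeq on GRCm38.p6, which held 22 of the 39 members. Some genes of these lists are not reported here.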

Additional observations from a re-analysis of the deposited data

Results flagged for a closer look

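Among 120 sets of 4 or 5 libraries, 1 per gene and group with a mean of at least 1 CPM, 9 held a library far from the others by Dixon's test, where chance gives about 1 in 20. The library labelled colon control 1 was low for Hoxa5, at 5.98 CPM against 16 to 19.3 CPM in the other control colon libraries, and for Hoxa10, at 11.4 CPM against 41.4 to 47.1 CPM. In arsenic cecum, library 13 was high for Hoxa11 at 4.42 CPM, against 2.02 to 2.62 CPM, and library 15 was high for Hoxb9 at 62 CPM, against 54.6 to 56.4 CPM, and for Hoxd4 at 2.6 CPM, against 1.07 to 1.48 CPM. In control cecum, library 1 was high for Hoxb8 at 24.5 CPM, against 14.9 to 16 CPM. In arsenic ileum, library 11 was high for Hoxb3 at 2.45 CPM, against 1.26 to 1.58 CPM. In control ileum, library 1 was high for Hoxb6 at 15.1 CPM, against 9.81 to 10.5 CPM, and library 5 was low for Hoxb7 at 4.02 CPM, against 5.84 to 6.12 CPM.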

How the results depend on the processing

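Of 1573 values of named genes under alternatives, 1486 kept their direction and side of the threshold, 85 lost the call and 2 reversed. Both reversals came with the smooth muscle score as covariate in colon over cecum on control feed. They were Hoxb2 at -0.40 ± 0.67 (edgeR adjusted p = 0.871) and Hoxa13 at -1.26 ± 3.3 (0.889), and neither was called. The score went with the region there, so that fit cannot separate muscle content from region. That covariate left 0 members higher, 1 lower and 610 genes in all for colon over cecum on control feed, 1, 0 and 100 on arsenic feed, 12 members higher for colon over ileum on control feed, and 0 lower with 1563 genes on arsenic feed. It also left 0 members lower and 21 genes in the ileum diet comparison, 0 higher, 2 lower and 1883 genes in the cecum, and 8 genes in the colon. A fit of all 27 libraries gave 0 members lower and 2889 genes in the ileum, 0 higher, 0 lower and 2021 genes in the cecum, and 493 genes in the colon. DESeq2 gave 2141 genes in the ileum, 665 in the colon, 30 for colon minus cecum and 698 for colon minus ileum, and 6 members lower for colon over cecum on arsenic feed. Members lower in that comparison were 1 with the 1 CPM filter and 4 without ileum arsenic 14 and 15, and on control feed 3 with upper-quartile scaling and 3 with the 1 CPM filter. Colon minus ileum gave 252 genes with RLE scaling and 113 without the filter. Without ileum arsenic 14 and 15 there were 0 members lower and 673 genes in the ileum, 9 genes for colon minus cecum, 124 for colon minus ileum, and 1 member lower for cecum minus ileum. The cause of these changes was not tested.

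Leaving out 1 library gave 3 to 10 members lower and 4 to 8 higher for colon over cecum on control feed, and 1 to 8 lower and 5 to 6 higher on arsenic feed. It gave 18 to 23 higher and 4 to 6 lower for cecum over ileum on control feed, 22 to 22 and 4 to 4 on arsenic feed, 16 to 21 and 4 to 5 for colon over ileum on control feed, and 23 to 25 and 4 to 4 on arsenic feed. In the ileum diet comparison it gave 0 to 1 member lower and 121 to 1583 genes, in the cecum 4 to 7 lower, 1 to 1 higher and 3070 to 4313 genes, and in the colon 6 to 351 genes. The interactions gave 1147 to 2642 genes for cecum minus ileum, 0 to 2 for colon minus cecum and 18 to 965 for colon minus ileum.

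Replicate numbers are shared between regions, but same-numbered libraries did not deviate together in all pairs (13 of 24 pairs above 0.1, r from -0.108 to 0.248). The labels do not say whether they came from the same mouse, and these values do not settle it. With the replicate block, colon over cecum on arsenic feed gave 1 member lower, without Hoxc6 (edgeR adjusted p = 0.0629), and on control feed Hoxa13 (2.75 ± 1.36, 0.176), Hoxc8 (0.0539) and Hoxa7 (0.0937) were not called. Low counts limit the 11 members under 1 CPM and every fold against a group at 0.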
